A study of Mus musculus with 4 samples.

Results

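Of 52132 nuclei in 4 mouse brain libraries that passed the filters used here, 53 carried both Slc17a7 and Prox1 transcripts under a rule meant to pick out dentate granule neurons. A nucleus was kept with 500 to 50000 UMIs (unique molecular identifiers, each marking 1 captured RNA molecule), more than 200 genes and under 5% of UMIs from mitochondrial genes. It was then counted as Slc17a7- and Prox1-positive with at least 1 Slc17a7 UMI, at least 2 Prox1 UMIs, at most 1 UMI of Gad1 and Gad2 together, at most 2 of Adarb2, at most 1 of Tcf7l2 and none of Slc17a6. WT replicate 1 held 9 such nuclei of 16114, WT replicate 2 held 26 of 15247, Csf1r+/- replicate 1 held 10 of 9589 and Csf1r+/- replicate 2 held 8 of 11182. Because measured counts chose these nuclei, their Slc17a7 and Prox1 values are given as a description and support nothing.

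The study asked what loss of 1 copy of Csf1r, the receptor gene for the growth factors CSF-1 and IL-34 on microglia, does in the brain before symptoms. Single-nucleus RNA sequencing was done on brains of untreated 2-month-old female C57/BL6 mice, wild type (WT) or heterozygous for Csf1r (Csf1r+/-) in the germline, so that every cell type carried the allele. Mice were perfused with heparinised buffer, nuclei were released without detergent, myelin debris was pulled out with magnetic beads, and droplet libraries were made on the 10x Genomics platform. The 2 libraries of each genotype used here each held nuclei of 1 mouse by the study's methods, so the spread between libraries includes that between animals. Median depth of kept nuclei was 5490 UMIs in WT replicate 1, 4636 in WT replicate 2, 7454 in Csf1r+/- replicate 1 and 6656 in Csf1r+/- replicate 2. Pairs of libraries shared 35 to 75 cell barcodes, or 0.353% to 0.484% of the smaller library.

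Dentate granule neurons are the principal glutamatergic cells of the dentate gyrus. They receive input from the entorhinal cortex, send mossy fibres to the hilus and to CA3, and are among the few neurons still generated in adult mice. Prox1 encodes a homeodomain transcription factor needed for granule cell identity, and Slc17a7 encodes the vesicular glutamate transporter VGLUT1. In the mouse genome (GRCm38, GENCODE annotation) Prox1 lies on the minus strand of chromosome 1 from 190118035 to 190170714 and Slc17a7 on the plus strand of chromosome 7 from 45163949 to 45176142. Prox1 is also known from some interneurons, from thalamic neurons and from the oligodendrocyte lineage, and the rule holds no criterion on a myelin gene.

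The data went against the label granule neuron in most of the 53 nuclei. At least 3 of 5 oligodendrocyte markers, among them Mog, Mag, Mbp and Mobp, which encode proteins of the myelin sheath, were detected in 39 of the 53. By library this was 8 of 9 nuclei in WT replicate 1, 18 of 26 in WT replicate 2, 10 of 10 in Csf1r+/- replicate 1 and 3 of 8 in Csf1r+/- replicate 2. All 5 markers were present in 18 nuclei, and none in 7. At least 5 of 15 granule markers other than the rule's own genes were detected in 12 nuclei. Among nuclei with exactly 1 Prox1 UMI and the other criteria met, this held for 6 of 37, 16 of 93, 4 of 25 and 7 of 31 in the same order of libraries. Among the markers most specific to mature granule cells, C1ql2, a synaptic organiser of mossy fibres, had 1 UMI in 1 nucleus, and Dsp and Tdo2 had 0 UMIs in all 53, which allows a share of nuclei with a UMI of up to 5.66%. These 3 genes were sparse in whole libraries too, with 34 to 84 UMIs of C1ql2, 8 to 25 of Dsp and 10 to 30 of Tdo2, so that their low counts here say little on the label. Because of the oligodendrocyte markers, the nuclei are called Slc17a7- and Prox1-positive below.

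**Figure D1:**
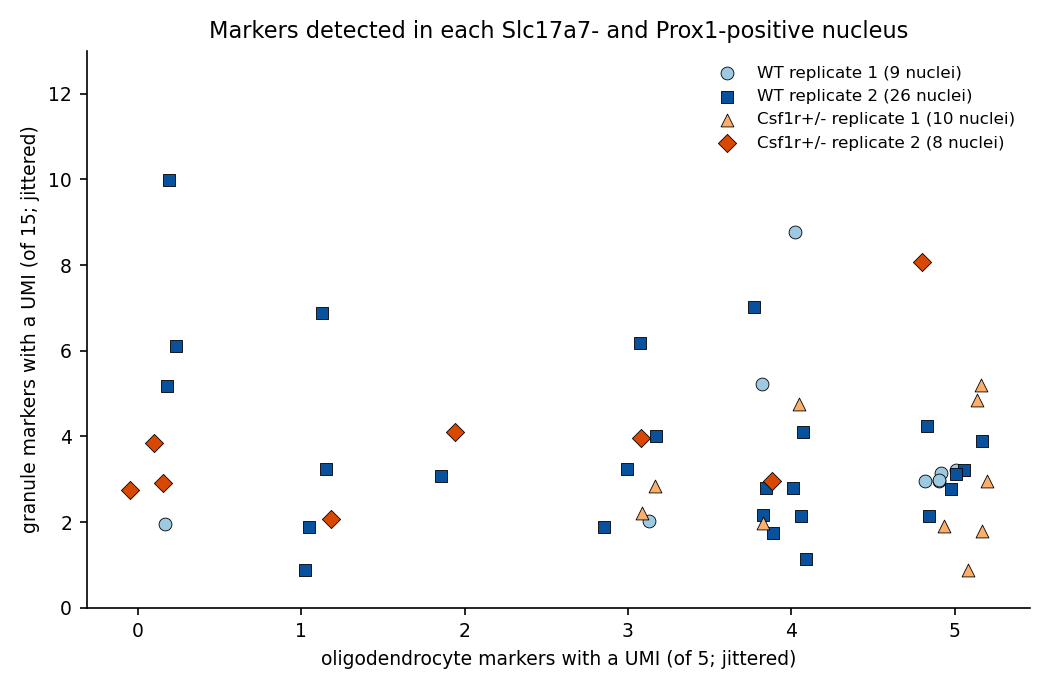
Each point is 1 of the 53 nuclei, placed by how many of 5 oligodendrocyte markers (horizontal axis) and of 15 granule markers (vertical axis) had a UMI, with the colour and shape giving the library. Most nuclei sit at the right with 3 or more oligodendrocyte markers, and the 4 nuclei with at most 1 oligodendrocyte marker and at least 5 granule markers all came from WT replicate 2.

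Each nucleus with at least 2 Prox1 UMIs that the rule removed is counted here at the first criterion it failed. The counts depend on the order of the criteria and do not show where Prox1 transcripts lay. Of 1407 nuclei with at least 2 Prox1 UMIs, 420 were removed first for Gad1 and Gad2, which encode the enzymes that make GABA. Another 425 were removed for Slc17a6, the vesicular glutamate transporter of thalamic and brainstem neurons, 70 for Tcf7l2, a transcription factor of thalamic neurons, and 217 for Adarb2, a marker of interneurons from the caudal ganglionic eminence. A further 222 lacked Slc17a7, and 99 of these had at least 4 UMIs of Mog and Mag together. Of all 1407 nuclei, 211 reached this Mog and Mag level, and the rule retained 21 of them. The rest of the 211, apart from these 99 and 21, failed first on Gad1 and Gad2, Slc17a6, Tcf7l2 or Adarb2. Adarb2 was also the most abundant of 9 inhibitory neuron markers in Mog and Mag nuclei without Slc17a7. Removal at these criteria therefore does not by itself identify an interneuron or a thalamic neuron.

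**Figure D2:**
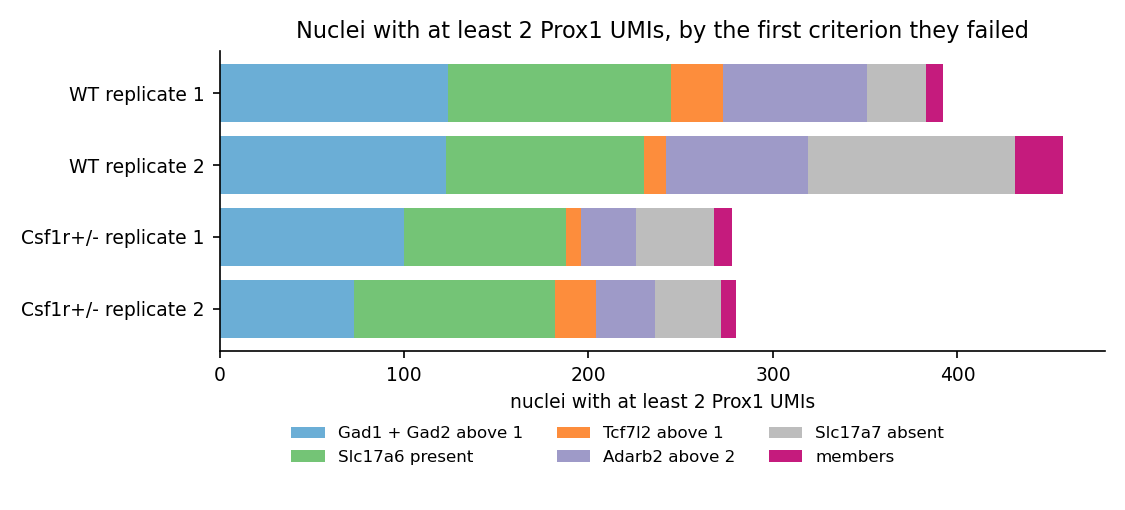
Horizontal bars give, for each library, the number of nuclei with at least 2 Prox1 UMIs, divided by the first criterion of the rule that removed them, with the retained nuclei at the right end. The retained nuclei number 9, 26, 10 and 8 and are the smallest class in WT replicate 1 and in Csf1r+/- replicate 2, while Tcf7l2 removed fewer in the other 2 libraries.

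In nuclei that were not chosen on Prox1, the gene was frequent in oligodendrocyte-marker nuclei and rare in Slc17a7 nuclei. Among nuclei with at least 4 UMIs of Mog and Mag together, 38.2% in WT replicate 1, 39.5% in WT replicate 2, 43.0% in Csf1r+/- replicate 1 and 48.0% in Csf1r+/- replicate 2 had a Prox1 UMI. Among nuclei that met every criterion of the rule except the one on Prox1, the shares were 1.06%, 2.74%, 1.04% and 0.931% in the same order. The Slc17a7 nuclei were the deeper of the 2 classes, with medians of 6218 to 9876 UMIs against 3119 to 3224.5 in the Mog and Mag nuclei. Slc17a7 itself had a UMI in 18.3%, 20.5%, 15.8% and 18.5% of the Mog and Mag nuclei, and 21 of the 53 Slc17a7- and Prox1-positive nuclei reached the same 4 UMIs of Mog and Mag. Free RNA in the droplets can give such UMIs, and its part was not tested.

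Most nuclei lay at the edge of the rule. Prox1 stood at exactly 2 UMIs in 37 nuclei, at 3 in 11 and at 4 or more in 5, with a highest value of 7. Slc17a7 stood at exactly 1 UMI in 27 nuclei. Just inside the Prox1 threshold, 4 of 5, 12 of 16, 10 of 10 and 3 of 6 nuclei in the order of libraries above had at least 3 oligodendrocyte markers. Just outside it, with exactly 1 Prox1 UMI and the other criteria met, the numbers were 6 of 37, 51 of 93, 8 of 25 and 11 of 31. Nuclei that failed only for lack of Slc17a7 carried at least 3 oligodendrocyte markers in 17 of 32, 95 of 112, 36 of 42 and 31 of 36 cases.

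Depth varied widely among the 53 nuclei. Their UMI totals ran from 1247 to 36428 with a median of 7258, and the median by library was 15806, 6039, 7086 and 8679. Summed over each library they gave 141761, 184812, 110514 and 97355 UMIs, and these sums set the precision of every level below. Snap25, a component of the neuronal release machinery, had a UMI in 45 nuclei, and Rbfox3, which encodes the neuronal nuclear protein NeuN, in 35. Scrublet, a program that scores how closely a nucleus resembles a simulated mixture of 2 others, placed 30 of the 53 among the highest scores of their library. By library this was 5 of 9, 14 of 26, 6 of 10 and 5 of 8, against 13.3%, 12.5%, 7.87% and 9.07% of all kept nuclei.

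Setting oligodendrocyte against neuronal transcripts divided the 39 nuclei with at least 3 oligodendrocyte markers further. The division was made after the values were seen and is a description. In 28 of the 39, Meg3, an abundant nuclear long noncoding RNA of neurons, reached 10 or more UMIs, and 26 of these 28 had a high Scrublet score. Their totals ran from 4374 to 25503 UMIs. In the other 11, Meg3 stayed under 10 UMIs, totals ran from 1247 to 7153, and 1 had a high score. An example of the first kind, from Csf1r+/- replicate 1, had 23204 UMIs with 86 UMIs of the 5 oligodendrocyte markers beside 85 of Meg3, 117 of Syt1, the calcium sensor of synaptic vesicles, and 25 of Foxp2. An example of the second kind, from the same library, had 4015 UMIs with 55 UMIs of oligodendrocyte markers, 28 of St18, a zinc-finger transcription factor, 1 of Syt1 and 0 of Meg3.

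The 12 nuclei with at most 1 oligodendrocyte marker came from WT replicate 1 (1), WT replicate 2 (7) and Csf1r+/- replicate 2 (4), and Csf1r+/- replicate 1 had none. A nucleus of WT replicate 2 with 3682 UMIs carried 10 of the 15 granule markers, among them 4 UMIs of Glis3, a zinc-finger transcription factor, 6 of Rfx3, a transcription factor of ciliogenesis, and 4 of Dock10, an activator of small GTPases. Another with 2365 UMIs carried 7 granule markers, with 3 UMIs of C1ql3, a secreted C1q-like protein, and 1 of Glis3. A nucleus with 2685 UMIs carried 6 and a nucleus with 2704 UMIs carried 5, and none of these 4 had a UMI of Foxp2, a transcription factor of deep-layer cortical neurons. In Csf1r+/- replicate 2, 3 of its 4 nuclei of this kind had Foxp2 at 22, 7 and 6 UMIs, and none of the 4 had more than 4 granule markers.

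Glis3 was detected in 5 of the 53 nuclei, 1 in WT replicate 1, 4 in WT replicate 2 and none in the Csf1r+/- libraries. It was detected in 6.09% of 15998 other excitatory nuclei, which met the rule's criteria with Slc17a7 but had no Prox1, and in 3.23% of 1208 Mog and Mag nuclei without Slc17a7. These 5 nuclei held 9.97% of the UMIs of the 53 but 52.0% of the C1ql3 UMIs, 48.3% of those of Cdh9, a cadherin of granule cells and CA3, and 30.9% of those of Rfx3. Granule markers differed in this: Maml2 had 25, 0, 1, 3 and 4 UMIs in the 5 nuclei, of 62 in all 53. Dock10 had 10, 4, 1, 7 and 4 UMIs there, of 344 in all 53. The deepest of the 5 nuclei, in WT replicate 1, had 13 Glis3 UMIs, 7 of Prox1 and 24 of Rfx3, and 19 UMIs of 4 oligodendrocyte markers.

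The 20 genes with the highest level in the Slc17a7- and Prox1-positive nuclei relative to other excitatory nuclei were also high in Mog and Mag nuclei. They were taken, by a ratio of mean CPM (UMIs per 1000000 UMIs of the summed nuclei), from 7995 genes detected in at least 10% of the 53 nuclei, and each was higher in all 4 libraries. All 20 were at least 8-fold higher in Mog and Mag nuclei without Slc17a7 than in other excitatory nuclei. Mog is one of the 20, and its excess there was fixed by the choice of those nuclei. None of the 20 was a granule marker, and 14 were also among the leading 20 against CA1-like nuclei, the nearest hippocampal class. St18 stood at 727, 979, 1294 and 349 CPM in the Slc17a7- and Prox1-positive nuclei of the 4 libraries, against 18.1 ± 13.2 CPM (SD, n = 4 libraries) in other excitatory nuclei and 2648 ± 469 in Mog and Mag nuclei. Mog, the myelin oligodendrocyte glycoprotein, stood at 141, 233, 253 and 82.2 CPM, against 4.29 ± 4.45 in other excitatory nuclei. Aspa, which encodes the aspartoacylase that splits N-acetylaspartate for myelin lipids, stood at 106, 249, 281 and 92.4 CPM. Prr5l, a partner of the kinase complex mTORC2, stood at 508, 812, 968 and 164 CPM. All 4 genes were lowest in Csf1r+/- replicate 2. The rest included Fa2h, which hydroxylates myelin sphingolipids, the connexin Gjc3, the claudin Cldn14, the cadherin Cdh19, Bcas1 and Enpp6, both of myelinating cells, and the nuclear RNA Neat1.

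As summed over the 5 markers, oligodendrocyte transcripts reached 27.7%, 38.1%, 38.1% and 10.4% of their level in the Mog and Mag nuclei of the same library. Mog and Mag are among the 5 markers and chose those nuclei, which raises the reference level. For the 20 leading genes the median over genes was 37.4% and the range 24.6% to 55.5%. Markers of other glial and vascular classes differed from list to list. Of the 6 endothelial and mural markers 1 had a UMI, and Cldn5 and Pecam1 were at 0. The 7 microglial markers summed to 63.5, 81.2, 36.2 and 144 CPM against 42.4, 76.8, 59.6 and 74.4 in other excitatory nuclei. Of the 6 astrocyte markers, Gja1 and Aldh1l1 were at 0 and the most abundant was Slc1a2, a glutamate transporter, at 391 ± 98.0 CPM against 508 in other excitatory nuclei. Slc1a3, another glutamate transporter, stood at 51 ± 25.4 CPM against 6.14 in other excitatory nuclei and 111 in Mog and Mag nuclei. Of the 5 markers of oligodendrocyte precursors Sox10, a transcription factor of the whole lineage, was the most abundant at 26 ± 17.4 CPM. It was at 0 in Csf1r+/- replicate 2, and stood at 0.80 CPM in other excitatory nuclei and 119 in Mog and Mag nuclei. The 5 precursor markers summed to 42.3, 48.7, 63.3 and 10.3 CPM, against 1.81, 6.88, 1.65 and 1.12 in other excitatory nuclei.

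**Figure D3:**
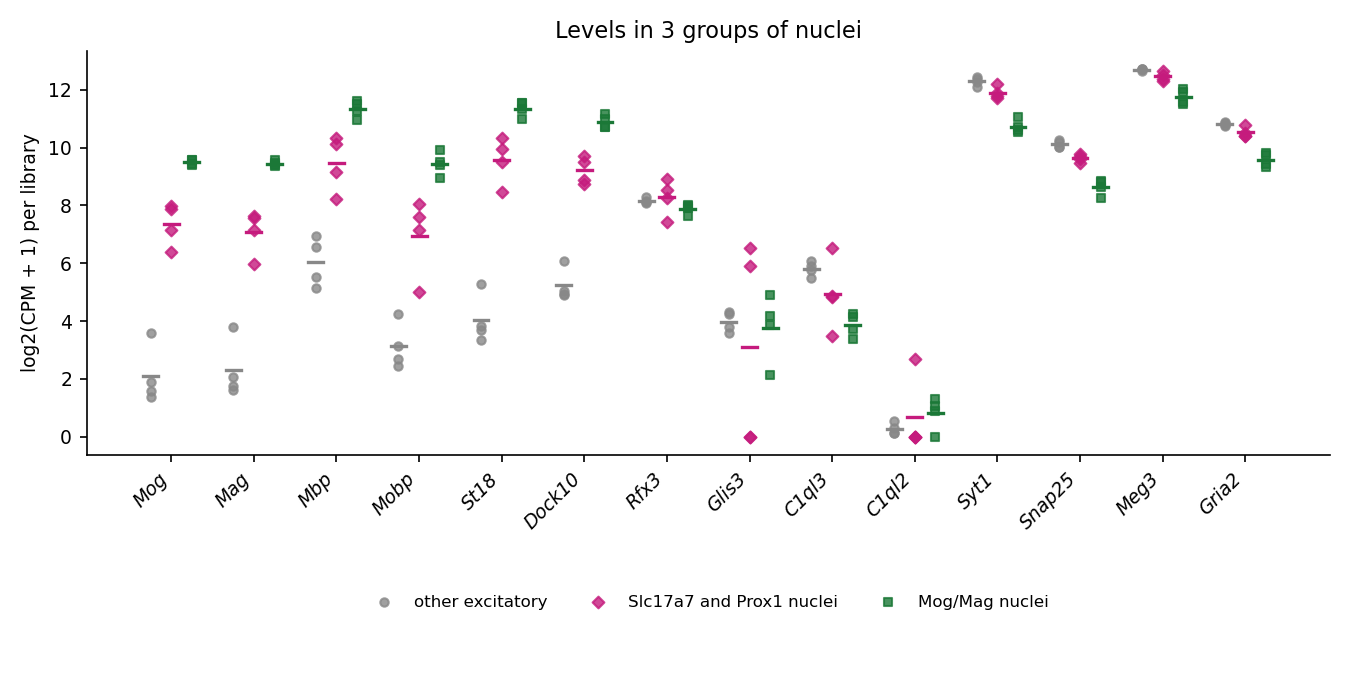
Each point is the level of a gene in 1 of 4 libraries, as log2 of CPM plus 1, in other excitatory nuclei, in the Slc17a7- and Prox1-positive nuclei and in Mog and Mag nuclei without Slc17a7, with short lines at the means. For Mog to Dock10 the Slc17a7- and Prox1-positive nuclei lie between the other classes, and for Syt1, Snap25, Meg3 and Gria2 they lie nearer to the other excitatory nuclei.

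The excess of granule marker transcripts over other excitatory nuclei lay largely in Dock10. The 15 markers summed to 1340, 1764, 1158 and 1263 CPM, above the 668, 696, 590 and 675 CPM of other excitatory nuclei but below the 2578, 2563, 3268 and 3006 CPM of the Mog and Mag nuclei. Dock10 stood at 616 ± 200 CPM against 39.1 ± 18.0 in other excitatory nuclei and 1925 ± 294 in Mog and Mag nuclei. Without Dock10 and Stxbp6, a choice made after seeing the data, the other 13 markers summed to 663, 709, 335 and 740 CPM, against 526, 504, 438 and 490 in other excitatory nuclei. Csf1r+/- replicate 1 was then below its other excitatory nuclei and the remaining 3 libraries were above. Maml2, which stayed among the 13, was also higher in Mog and Mag nuclei, at 118 CPM against 27.3 in other excitatory nuclei. In WT replicate 1 all 25 of its UMIs, or 176 CPM, came from 1 nucleus. Rfx3 stood at 333 ± 130 CPM against 286 ± 17.5, and C1ql3 at 39.4 ± 36.0 against 55.8 ± 9.68. Of the 9 markers of immature granule cells, Igfbpl1, Eomes and Bhlhe22 were at 0 and the most abundant was Dcx, a microtubule protein of young neurons, at 101 ± 29.5 CPM against 124 in other excitatory nuclei. Of the 4 markers of hilar mossy cells, Csf2rb2 and Calcrl were at 0. The 7 cortical markers summed to 628, 1115, 1674 and 1849 CPM against 1489, 1419, 1453 and 1530.

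Genes of the release machinery and of potassium, sodium and calcium channels summed lower than in other excitatory nuclei in all 4 libraries, while the sums of receptor genes overlapped between the classes. The 24 genes of the release machinery, a list that holds Slc17a7, summed to 11759, 9458, 9239 and 11669 CPM, against 12067 to 13236 in other excitatory nuclei and 4660 to 5964 in Mog and Mag nuclei. Leaving Slc17a7 out, the median gene stood at 78.6% of its level in other excitatory nuclei. The 17 ionotropic glutamate receptor genes summed to 12253, 11125, 9646 and 12049 CPM against 12143, 11755, 11391 and 11635, so that their sum was lower in WT replicate 2 and Csf1r+/- replicate 1 although the median gene stood at 112%. Among them were Grin2a, an NMDA receptor subunit, at 1507 ± 477 CPM, and Gria2, the AMPA receptor subunit that limits calcium entry, at 1488 ± 197. The 8 metabotropic receptors summed to 6003 ± 854 CPM against 6305 ± 279, led by Grm7 at 2532 ± 133. The 14 GABA-A receptor subunits summed to 4402 ± 1298 CPM against 4489 ± 265. The 32 potassium channel genes were lower, at 19372 ± 2071 against 27629 ± 2058 CPM, and the abundant Kcnip4, a subunit of A-type channels, stood at 8578, 6428, 7746 and 4366 CPM against 11127 in the mean of other excitatory nuclei. The 23 sodium and calcium channel genes summed to 6391 ± 575 against 7835 ± 200 CPM.

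Like the granule markers Dock10 and Maml2, Zbtb20 and Erbb4 stood above their level in other excitatory nuclei in all 4 libraries. Zbtb20, a transcription factor of hippocampal neurons, stood at 1390, 584, 534 and 318 CPM, against 200.5 in the mean of other excitatory nuclei and 1188 in Mog and Mag nuclei. Erbb4, a neuregulin receptor, stood at 912 ± 342 CPM, against 121 and 2381 in the same 2 classes. Nrg3, a neuregulin of neurons, stood at 6564 ± 1517 against 7513 and 2783. The 39 adhesion and wiring genes summed to 34488 ± 3752 CPM against 38399 ± 1910. The genes of granule cell transcription and neurogenesis, leaving out Prox1, numbered 19 and summed to 4816 ± 932 CPM against 4796 ± 146. The 13 peptides and secreted factors summed to 361 ± 97.9 against 434 ± 49.3. The 19 immediate early genes, which neurons induce with activity, summed to 847, 547, 778 and 380 CPM against 764, 721, 1118 and 616, and Homer1 made up the largest part. These are descriptions, since the nuclei were chosen from the same counts.

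The genes that varied most from nucleus to nucleus, by variance over mean after each nucleus of at least 2000 UMIs was thinned to 2000 UMIs and by their lowest rank in any library, were Malat1, Lsamp, Kcnip4, Nkain2, St18, Gm28928, Frmpd4, Dlg2, Meg3 and Opcml. St18 was the one oligodendrocyte gene of the 10, with a variance over mean of 5.34, 6.88, 9.34 and 3.13 in the 4 libraries and a UMI in 41 nuclei. Malat1, a nuclear noncoding RNA, stood between 12.1 and 27.9 and was first by this ranking, though in Csf1r+/- replicate 1 it was under Kcnip4 and Nkain2. Kcnip4 stood between 6.84 and 12.9.

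The share of Slc17a7- and Prox1-positive nuclei among kept nuclei did not separate the genotypes at the rule's threshold of 2 Prox1 UMIs. It was 0.0559% in WT replicate 1 (95% exact binomial interval 0.0255% to 0.106%), 0.171% in WT replicate 2 (0.111% to 0.250%), 0.104% in Csf1r+/- replicate 1 (0.05% to 0.192%) and 0.0715% in Csf1r+/- replicate 2 (0.0309% to 0.141%). The intervals cover counting error only. Both Csf1r+/- libraries lay between the WT libraries, with means of 0.0879% ± 0.0232 (SD, n = 2) and 0.113% ± 0.0811 (two-sided exact permutation p = 1.0). The smallest p that 2 against 2 libraries can give is 0.333. The Csf1r+/- mean was 0.0253 percentage points lower (-0.0253), and without WT replicate 2 it was 0.0321 percentage points higher. With at least 3 Prox1 UMIs the nuclei numbered 4, 10, 0 and 2, with shares of 0.0248%, 0.0656%, 0% and 0.0179%. Both Csf1r+/- libraries were then below both WT libraries, with means of 0.00894% ± 0.0126 and 0.0452% ± 0.0288 (SD, n = 2, two-sided exact permutation p = 0.333, the smallest possible). Among nuclei with Slc17a7, no Slc17a6 and at most 1 UMI of Gad1 and Gad2 the shares were 0.186%, 0.541%, 0.272% and 0.180%. After each nucleus was thinned to 2000 UMIs, leaving out 1948, 2101, 707 and 689 shallower nuclei, the rule found on average 3.0, 4.8, 0.75 and 0.65 nuclei over 20 draws, with shares of 0.0212%, 0.0365%, 0.00844% and 0.00619%. The thinned shares were lower in both Csf1r+/- libraries than in both WT libraries, on fewer than 5 nuclei each. Nuclei with at least 4 Mog and Mag UMIs made up 1.19%, 5.14%, 3.30% and 1.79% of the same libraries, in the same order from lowest to highest as the Slc17a7- and Prox1-positive nuclei, and the part of this in the shares was not tested. Fewer cells of a type and less capture of their nuclei cannot be told apart.

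**Figure D4:**
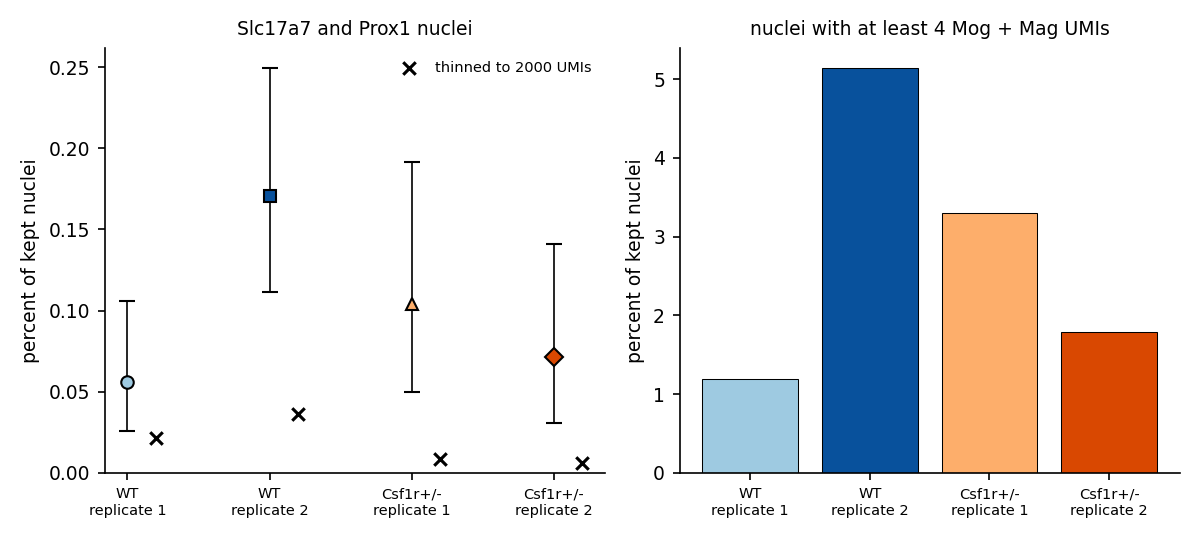
The left panel gives the percent of kept nuclei that were Slc17a7- and Prox1-positive in each library, with 95% exact binomial intervals, and crosses for the share after thinning to 2000 UMIs; the right panel gives the percent of kept nuclei with at least 4 Mog and Mag UMIs as bars. WT replicate 2 is highest and WT replicate 1 lowest in both panels, apart from the crosses.

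Csf1r, the targeted gene, gave 0, 0, 0 and 1 UMI in the Slc17a7- and Prox1-positive nuclei and could not be compared there. In nuclei with at least 4 UMIs of the microglial complement genes C1qa and C1qb it stood at 406 and 272 CPM in the WT libraries and at 216 and 297 CPM in the Csf1r+/- libraries, so that the genotypes overlapped. Reads from the 3' end of the gene check a label only where the mutant allele makes no such transcript, which the labels do not say.

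Between the genotypes, 1 gene of 6619 tested in the Slc17a7- and Prox1-positive nuclei passed an adjusted p of 0.05, which is 0.0151% of those tested. UMIs were summed per library and compared with edgeR's quasi-likelihood test, with Benjamini-Hochberg adjustment over all genes tested. At the study's unadjusted p of 0.01, 67 genes passed (1.01%), 26 higher (0.393%) and 41 lower (0.619%) in Csf1r+/-, and 269 genes (4.06%) had an unadjusted p under 0.05. Levels of the 2 WT and the 2 Csf1r+/- libraries did not overlap for 2124 genes (32.1%). Few nuclei stood behind the 67 genes. In the median gene among them 25.5% of all UMIs came from 1 nucleus, against 13.4% for all genes tested, and 8 were at 0 in both Csf1r+/- libraries. Leaving out 1 library moved the counts: at the unadjusted threshold 42 genes passed without WT replicate 1, 105 without WT replicate 2, 169 without Csf1r+/- replicate 1 and 92 without Csf1r+/- replicate 2, and 3, 26, 35 and 11 passed the adjusted one. In such fits the lone library is assumed to vary like the other genotype.

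Ndst4, which encodes a heparan sulfate N-deacetylase/N-sulfotransferase and lies on chromosome 3 at 125404076 to 125728899 (GRCm38, plus strand), was the gene that passed. It had 77 UMIs in 3 nuclei of WT replicate 1, 33 UMIs in 8 nuclei of WT replicate 2 and 0 in both Csf1r+/- libraries. In CPM this was 543 and 179 in the WT libraries. Against a floor of 3 counts per Csf1r+/- library, which is 29.0 CPM in the mean, it was at least 12.45-fold lower in Csf1r+/- (adjusted p = 0.0122, edgeR quasi-likelihood), and at least 6.16-fold lower with WT replicate 2 alone. A single nucleus held 46 of the 77 UMIs in WT replicate 1. In other excitatory nuclei Ndst4 stood at 69.0 and 37.4 CPM in WT and at 28.8 and 21.8 CPM in Csf1r+/-. The floor of 29.0 CPM holds for the small sums of the Slc17a7- and Prox1-positive nuclei. In the larger sums of other excitatory nuclei, 3 counts are 0.0772 and 0.0766 CPM in the Csf1r+/- libraries, far under these levels. The 5 Glis3-positive nuclei held 2 of the 110 UMIs. Ndst4 was lower in Csf1r+/- in all 17 other settings and kept an adjusted p under 0.05 in 11. These 11 include fits that left out 1 library. They also include a limit of at least 1000 UMIs, which kept all 53 nuclei and so could not fail. The threshold was missed after thinning to 2000 UMIs, without high Scrublet scores and with replicate number as a block. It was also missed in nuclei with at most 1 UMI over 9 glial genes, at least 3 granule markers or at least 3 Prox1 UMIs. Nuclei with more than 1 glial UMI kept it. The highest adjusted p was 0.9995 (edgeR quasi-likelihood).

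After Ndst4, Fam19a1 and Nell1 had the smallest p-values among the genes lower in Csf1r+/-. Fam19a1, a secreted chemokine-like protein of neurons, had 331 and 190 UMIs in the WT libraries and 34 and 12 in the Csf1r+/- libraries. Its log2 fold change was -2.94 (SE 0.54, adjusted p = 0.0942, edgeR quasi-likelihood), or -2.15 without WT replicate 1 and -3.74 without Csf1r+/- replicate 1, and it was detected in 7, 14, 3 and 2 nuclei. Nell1, a secreted protein with EGF-like repeats, had 67, 58, 11 and 6 UMIs and a log2 fold change of -2.24 (SE 0.49, adjusted p = 0.436, edgeR). Crtac1, a secreted cartilage acidic protein, had 41, 16, 1 and 2 UMIs. Chst9, a carbohydrate sulfotransferase, had 25, 19, 0 and 3 UMIs, and Fbxl7, an F-box protein of ubiquitin ligases, had 19, 21, 2 and 1, of which 18 in WT replicate 1 came from 1 nucleus. In other excitatory nuclei the log2 fold changes of Fam19a1 and Nell1 were -0.08 and 0.08, and in Mog and Mag nuclei they were -1.17 and -0.56. For Crtac1 the log2 fold change in other excitatory nuclei was -0.23. Of the genes given next, Gm32647 and Cdh9 were also lower there, at -0.64 and -0.54. Raver2, Sipa1l3 and Kcnd3 stood at -0.15, -0.24 and -0.15 there.

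Glis3 and Raver2 were, like Ndst4, at 0 in both Csf1r+/- libraries. Glis3 had 13 UMIs in 1 nucleus of WT replicate 1 and 11 UMIs in 4 nuclei of WT replicate 2, and was at least 2.61-fold lower against the same floor. Over all kept nuclei Glis3 stood at 23.9 and 22.8 CPM in the WT libraries and at 13.7 and 14.2 CPM in the Csf1r+/- libraries. The part of this library-wide difference was not tested. Raver2, an RNA-binding protein, had 28 and 5 UMIs and was at least 3.87-fold lower, though WT replicate 2 alone, at 27.1 CPM, lay under the floor. The other genes chosen on this side were the noncoding Gm32647 (48, 38, 7 and 0 UMIs), Sipa1l3, a GTPase-activating protein (16, 14, 1 and 1), Cdh9 (29, 47, 8 and 5) and Kcnd3, a pore subunit of A-type potassium channels (47, 62, 10 and 12). In WT replicate 1, 46 of the 48 Gm32647 UMIs and 11 of the 16 Sipa1l3 UMIs came from 1 nucleus each. Among the genes just listed Kcnd3 was the most widely detected, in 29 nuclei, with a log2 fold change of -1.61 (SE 0.45, adjusted p = 0.77, edgeR). Without Csf1r+/- replicate 1 Kcnd3 no longer passed the unadjusted threshold, at -1.39.

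On the higher side, Rai14, Sdk1 and Foxp2 had the smallest p-values. Foxp2 had 11 and 43 UMIs in the WT and 36 and 84 in the Csf1r+/- libraries, which in CPM was 77.6, 233, 326 and 863. Its log2 fold change was 1.96 (SE 0.53, adjusted p = 0.714, edgeR), and 46 of the 84 UMIs of Csf1r+/- replicate 2 came from 1 nucleus. On leaving out 1 library the log2 fold change of Foxp2 was 1.44 without WT replicate 1 and 1.07 without Csf1r+/- replicate 2, neither past the unadjusted threshold, and 2.89 without WT replicate 2. Sdk1, the adhesion protein sidekick-1, had 24, 34, 39 and 85 UMIs and a log2 fold change of 1.82 (SE 0.47, adjusted p = 0.676, edgeR), which was 1.01 without Csf1r+/- replicate 2 and no longer past the unadjusted threshold. Single nuclei held 20 of the 39 Sdk1 UMIs in Csf1r+/- replicate 1 and 43 of the 85 in Csf1r+/- replicate 2. Rai14, an actin-binding protein, had 0, 3, 4 and 20 UMIs, and Col12a1, a collagen chain, had 1, 1, 2 and 17, of which 13 came from 1 nucleus. Glra3, a glycine receptor subunit, had 0, 2, 2 and 15 UMIs, 12 of them in 1 nucleus. Kif2a, a microtubule-depolymerising kinesin, had 6, 13, 19 and 18 UMIs in 26 nuclei, and Hivep1, a zinc-finger transcription factor, 2, 8, 14 and 11. Cpne4, a calcium-dependent membrane-binding protein, had 14, 29, 28 and 44, and 27 of these 44 came from 1 nucleus. Ipcef1, 5530401A14Rik, Mypn and Agbl1 completed the 12, with totals of 44, 29, 13 and 13 UMIs.

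**Figure D5:**
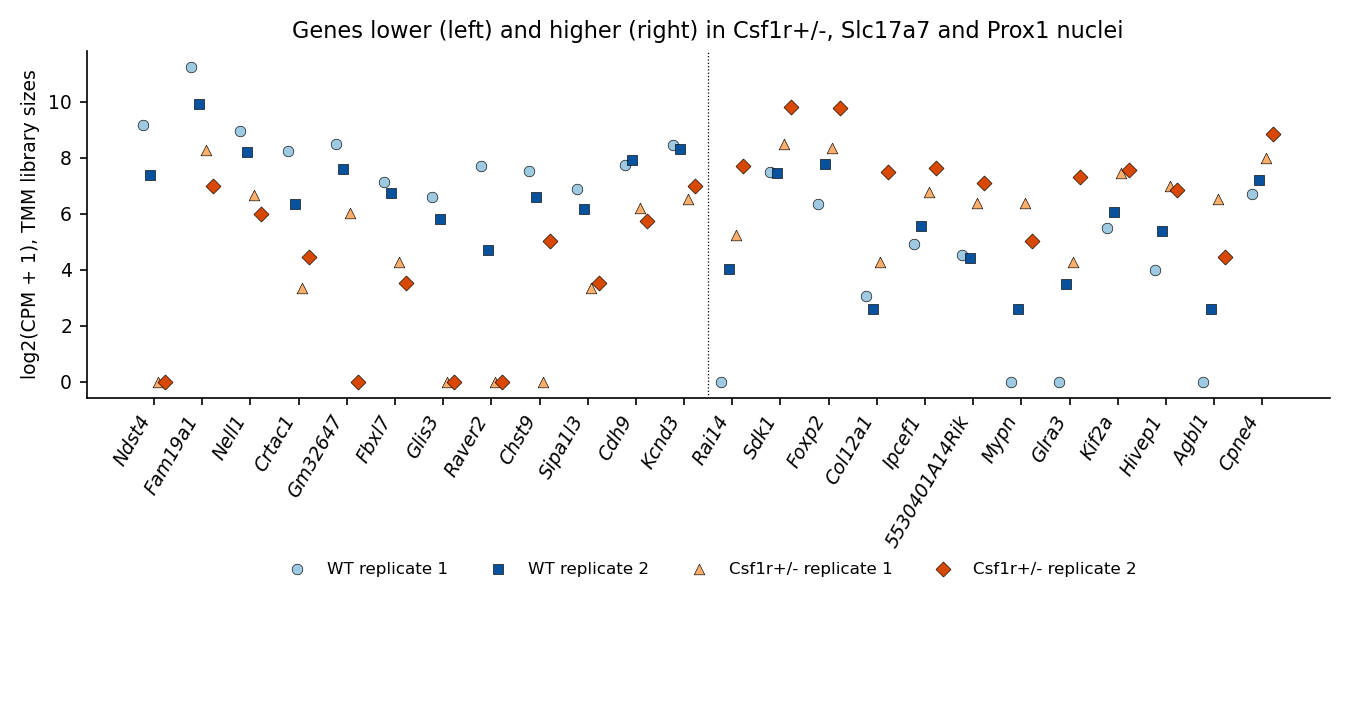
For the 12 genes lower and the 12 genes higher in Csf1r+/- with the smallest unadjusted p among those whose libraries did not overlap, points give log2 of CPM plus 1 in each of the 4 libraries, with library sizes scaled by the trimmed mean of M values. Ndst4, Glis3 and Raver2 are at 0 in both Csf1r+/- libraries. For 9 of the 12 genes on the right Csf1r+/- replicate 2 is the highest library.

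Oligodendrocyte transcripts, which marked most of these nuclei, differed little between the genotype means but widely between libraries. St18 had 103, 181, 143 and 34 UMIs and a log2 fold change of -0.01 (SE 0.49), and Mog had 20, 43, 28 and 8 and -0.10 (SE 0.50). None of the 5 oligodendrocyte markers passed the unadjusted threshold, and their median log2 fold change was -0.10 against -0.0038 for all genes tested. In CPM the 5 markers summed to 1686, 2565, 3104 and 791, so that the 2 Csf1r+/- libraries were the highest and the lowest. Their part in the genotype differences above was not tested.

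The gene lists of granule cell biology and of other cell types held few genes past the unadjusted threshold, beside 1.01% of all genes tested. Of 8 granule markers tested, other than the rule's genes, Glis3 passed, lower in Csf1r+/-, and 7 of the 8 had a negative fold change, with a median of -0.27. Of 6 cortical markers tested Foxp2 passed, higher, with a median of 0.88, and the 1 testable marker of CA pyramidal neurons was Cpne4, counted above. Among 38 adhesion and wiring genes 3 passed, all lower: Cdh9, Epha6, an ephrin receptor (223, 172, 48 and 49 UMIs), and Plxna4, a semaphorin receptor (108, 89, 37 and 11 UMIs), and the median was 0.10. Of 15 ionotropic glutamate receptors Grin3a, an NMDA receptor subunit (27, 18, 4 and 2 UMIs), passed, of which 25 in WT replicate 1 came from 1 nucleus. Of 11 GABA-A receptor subunits Gabra2 passed (68, 69, 15 and 20 UMIs), lower while 8 of the 11 had a positive fold change. Of 29 potassium channel genes Kcnd3 passed. In other excitatory nuclei Grin3a was also lower (log2 fold change -0.47, unadjusted p = 0.007584, edgeR), while Gabra2, Epha6 and Plxna4 stood at -0.08, -0.09 and 0.03. No gene passed among 21 tested release machinery genes (median 0.06), 5 metabotropic receptors (0.26), 18 sodium and calcium channels (-0.12), 15 transcription and neurogenesis genes (0.22), 8 peptides and secreted factors (-0.14), 9 immediate early genes (-0.01), 4 neuregulins and ErbB receptors (0.02) or 6 neuronal ligands of microglia (0.67).

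The genes that the study named for metal ion handling, cell death and stress were sparse here, as was Il34, which was added to them. Mt1 and Mt2, the metallothioneins that bind zinc and copper, had 9 and 2 UMIs in all and did not reach the 10 counts a test needed. Mt3, the neuronal metallothionein, had 2 and 8 UMIs in WT and 1 and 2 in Csf1r+/- (log2 fold change -0.96, SE 1.02), which ran from -1.62 to -0.47 over the 3 fits without 1 library in which it was tested. Apoe, a lipid carrier, had 4, 25, 4 and 8 UMIs (-0.48, SE 0.67), but its fold change turned positive without WT replicate 2 (0.99) and without Csf1r+/- replicate 1 (0.0094). Aldoc, a glycolytic aldolase, had 1, 7, 1 and 2 (-0.64, SE 1.11), with -1.25 without WT replicate 1 and -0.15 without Csf1r+/- replicate 1. Rps29 and Rpl37, of the small and large ribosomal subunits, had 7, 13, 2 and 0 UMIs and 2, 7, 1 and 0 UMIs, with log2 fold changes of -2.51 (SE 0.97) and -2.24 (SE 1.35). Without Csf1r+/- replicate 2, Rps29 was at -1.68 and Rpl37 at -1.48. Without Csf1r+/- replicate 1, the remaining Csf1r+/- library had 0 Rps29 UMIs, so the fitted -6.11 is not a measured size. The floor of 3 counts in that library is 30.8 CPM, against 49.4 and 70.3 CPM of Rps29 in the WT libraries. Il34, a neuronal ligand of the CSF-1 receptor, had 2, 2, 2 and 4 UMIs (1.22, SE 1.04). For none of these 6 tested genes was the adjusted p under 0.999 (edgeR). None of the 9 metallothionein and zinc transport genes tested passed the unadjusted threshold (median -0.21).

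No gene of translation or respiration passed the unadjusted threshold with the quasi-likelihood test. Rps29, lower in Csf1r+/-, had an unadjusted p of 0.01774 by this test and of 0.006342 by edgeR's likelihood-ratio test, the one the study used. Of 43 ribosomal protein genes tested, 36 had a negative fold change, with a median of -1.20, and of 14 nuclear-encoded respiratory chain genes 13 had, with a median of -0.68. The 7 genes tested of the integrated stress and unfolded protein response had a median of -0.25. WT replicate 2 had the highest level of ribosomal transcripts. The 83 genes of the list summed to 2738 CPM, against 1023 in WT replicate 1 and 1158 and 842 in the Csf1r+/- libraries. The same library was highest in other excitatory nuclei, at 2565 against 1253, 1117 and 1032 CPM, and in Mog and Mag nuclei, at 3945 against 1662, 1876 and 1591 CPM. It also had the highest median share of mitochondrial UMIs among kept nuclei, at 0.656% against 0.171%, 0.268% and 0.144%. The part of this library-wide difference in the lists was not tested.

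The genotype difference was then compared with that in other excitatory nuclei, in one edgeR model with an interaction term. Of 6621 genes, 0 had an adjusted p under 0.05, 64 (0.967%) had an unadjusted p under 0.01 and 283 (4.27%) under 0.05. The smallest p-values were those of Ndst4, Nell1, Fam19a1, Sdk1, Rai14 and Galntl6. Without Csf1r+/- replicate 1, 48 genes passed the adjusted threshold and 203 the unadjusted one, without Csf1r+/- replicate 2 it was 9 and 100, and without WT replicate 1 it was 0 and 18. For Nell1 the difference of the log2 fold changes was -2.35 (SE 0.43, adjusted p = 0.212), for Fam19a1 -2.79 (SE 0.56, adjusted p = 0.383), for Sdk1 1.95 (SE 0.42, adjusted p = 0.537) and for Rai14 3.83 (SE 0.94, adjusted p = 0.909), all by edgeR. Galntl6, a glycosyltransferase of the mucin type, had 215, 144, 46 and 40 UMIs and a difference of -1.41 (SE 0.36). No genotype difference was therefore shown to differ between the Slc17a7- and Prox1-positive nuclei and other excitatory nuclei at the adjusted threshold. Fitted alone, other excitatory nuclei had 26 of 7841 genes (0.332%) and Mog and Mag nuclei 66 of 5696 (1.16%) at the unadjusted p of 0.01.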

How the data were processed

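Nuclear RNA of mouse brain was sequenced from droplets by the authors, and the deposited files hold whole-number UMI counts per gene and barcode for 2 WT and 2 Csf1r+/- libraries, made with Cell Ranger 5.0.0 against mm10. Further settings are not given in the sources used here. Every step after the deposited count matrices was done for this text. Nuclei were filtered and chosen as stated, and the members, gene lists and tests were chosen with earlier results of these data known. Deposited libraries held 16415, 16301, 9905 and 11369 barcodes with 112226479, 89727416, 89436507 and 89799327 UMIs. Counts were summed per library and compared with edgeR 4.0.16 (quasi-likelihood, TMM, two-sided, Benjamini-Hochberg). A gene entered the test if detected in 10% or more of the nuclei of WT or of Csf1r+/- and if its sum reached 10. DESeq2 1.42.0 and the edgeR likelihood-ratio test were alternatives. The interaction fit had library, cell group and their genotype terms. Levels are CPM without further scaling. The fits were tested on simulated data.

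Comparison classes were other excitatory nuclei (the same criteria, no Prox1), CA1-like nuclei (Slc17a7, no Prox1, at least 2 UMIs of Fibcd1 and Spink8), and nuclei with at least 4 Mog and Mag UMIs and no Slc17a7. CA1-like nuclei numbered 102 and Mog and Mag nuclei 1208. Scrublet, run through scanpy 1.11.5, marked the top 0.8% of scores per 1000 nuclei of a library, and marked nuclei were kept except in 1 alternative. Share intervals are exact Clopper-Pearson intervals at 95%, and floors are 3 counts. Named genes were the rule genes and Csf1r, the granule markers, the 12 genes per direction with the smallest unadjusted p under 0.01 whose groups did not overlap, the genes the study is about, the 3 most abundant members of each list with any called member, the leading 20 by ratio, the 10 most variable and the 6 with the smallest interaction p. Some members of these lists are not reported here by name. The alternatives are given in the closing section.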

Additional observations from a re-analysis of the deposited data

How the results depend on the processing

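The count of genes with an unadjusted p under 0.01, 67 as reported, was 111 with the likelihood-ratio test, 14 with DESeq2, 37 in nuclei with at most 1 UMI over 9 glial genes, 17 without high Scrublet scores, 7 after thinning to 2000 UMIs and 39 with the replicate block. With Prox1 at 3 or more it was 194 on 3 libraries, since Csf1r+/- replicate 1 had 0 such nuclei, and leaving out 1 library gave 42 to 169. The count with an adjusted p under 0.05, 1 as reported, was 9, 2, 0, 0, 0, 0 and 80 in the same settings, 2 with library totals alone, 0 in nuclei with at least 3 granule markers and 3 to 35 on leaving out 1 library. In nuclei with more than 1 glial UMI, chosen after seeing the data, it was 2. Of the 67 genes, 15 also passed in nuclei with at most 1 glial UMI and 27 in those with more. For the interaction, 18 to 203 genes passed the unadjusted threshold and 0 to 48 the adjusted one on leaving out 1 library. The counts stayed within 1.5 times of those reported for RLE size factors, no detection filter, CA1-like nuclei and, chosen after seeing the data, Mog and Mag nuclei as the comparison. The share of nuclei differed by -0.0253 percentage points and by -0.0826 to 0.0321 on leaving out 1 library, reversing without WT replicate 2. With at least 3 Prox1 UMIs it differed by -0.0363. Among 30 named genes and their 428 values in other settings, 342 kept direction and side of the threshold, 81 lost it, 3 passed it and 2 reversed. The 3 were all of Rps29, lower in Csf1r+/-, with an unadjusted edgeR p of 0.006342 in the likelihood-ratio test, 0.002733 in nuclei with at least 3 granule markers and 0.006028 without Csf1r+/- replicate 1, against 0.01774 as reported. Both reversals were of Apoe, whose log2 fold change ran from -1.19 to 0.99 on leaving out 1 library, positive without WT replicate 2 and without Csf1r+/- replicate 1. A limit of at least 1000 UMIs, also among the settings of the 428 values, kept all 53 nuclei, so its values could not move. Replicate numbers in the labels name no shared animal or day, so they were not used to pair the samples in the reported fit. The deviations of same-numbered libraries correlated at -0.0074 over 6619 genes. Tested genes had a median of 26 UMIs over all libraries, so counting noise keeps this value from deciding whether the samples were paired. Fits after choosing nuclei on thinned counts were not run: the first of 20 draws held 0 nuclei in both Csf1r+/- libraries, and the other draws were used for the share alone. The causes were not tested.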

Other observations

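Prox1 was also measured in other classes of nuclei, none of which was chosen on it. In nuclei with Slc17a6 and at least 2 Tcf7l2 UMIs, markers of thalamic neurons, 31.9%, 38.2%, 47.3% and 40.4% had a Prox1 UMI in WT replicates 1 and 2 and Csf1r+/- replicates 1 and 2, at 71.6, 97.0, 99.4 and 89.6 CPM. In GABA nuclei with at least 3 Adarb2 UMIs the shares were 20.7%, 22.8%, 18.5% and 18.3%, and in GABA nuclei without Adarb2 they were 9.97%, 6.36%, 5.21% and 5.53%. In nuclei with at least 4 UMIs of C1qa and C1qb they were 9.35%, 18.8%, 9.52% and 5.43%, at median depths of 1433 to 2761.5 UMIs. In the thalamic class the shares of both Csf1r+/- libraries lay above those of both WT libraries, while the CPM values of the genotypes overlapped. In the GABA nuclei of both kinds the shares of both WT libraries lay above those of both Csf1r+/- libraries, while the CPM values again overlapped, at 47.7, 56.6, 48.8 and 42.6 with Adarb2 and at 22.1, 10.9, 11.6 and 14.3 without. These differences were not tested.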
